A study of Mus musculus with 7 samples.

Results

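Polyamine synthesis and turnover genes were examined in RNA from Lgr5-positive mouse hair follicle cells of the growth phase (Anagen) and the resting phase (Telogen) of the hair cycle. The 9 genes, of 15415 in the deposited table, were Odc1, Srm, Sms, Amd1, Azin1, Oaz1, Oaz2, Sat1 and Smox. They were chosen by name from the polyamine pathway, with earlier results of this Anagen against Telogen contrast known, so their differences between the groups are given as a description and carry no p-value. All 9 were listed, and 8 passed the filter on low counts, Amd1 being the exception. The 4 Anagen samples came from mice 35 days old and the 3 Telogen samples from mice 45 days old. Mice of both groups were C57Bl6 x B10D2, and in both the cells of the back epidermis, freed with trypsin after depilation, were sorted as GFP-positive, CD45-negative and DAPI-negative, GFP being the reporter of Lgr5. The labels do not say whether a sample was 1 animal or several, so the spread between samples, on which every p-value here rests, may be technical in part. Age and phase cannot be told apart in this design.

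Polyamines are small positively charged molecules that bind nucleic acids and are needed for cell growth. Ornithine decarboxylase (ODC, gene Odc1) makes putrescine, and spermidine synthase (Srm) and spermine synthase (Sms) then add aminopropyl groups that come from S-adenosylmethionine through its decarboxylase (Amd1). Antizymes (Oaz1, Oaz2) direct ODC to the proteasome, antizyme inhibitor (Azin1) binds antizyme in place of ODC, and spermidine/spermine acetyltransferase (Sat1) and spermine oxidase (Smox) take polyamines apart. In mouse skin ODC is known from proliferating cells of the growing follicle, and Odc1 is a textbook target gene of MYC.

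The promoters of the 3 genes with the widest differences between the groups are shown first, from 250 bases before to 50 bases after the transcription start, as RefSeq gives them on GRCm38.p6. Capitals mark GC boxes (GGGCGG, on either strand and allowing overlap) and E-boxes (CACGTG, the motif that MYC-MAX dimers bind). The Odc1 promoter lies at chr12:17544623-17544922 (plus strand), the 2 Sms promoters at chrX:157492238-157492537 and chrX:157491319-157491618 (minus strand) and the Smox promoter at chr2:131491612-131491911 (plus strand). On the minus strand the counted Sms row starts at 157492046, which lies in neither Sms window. The counted Odc1 and Smox rows start inside theirs.
Odc1: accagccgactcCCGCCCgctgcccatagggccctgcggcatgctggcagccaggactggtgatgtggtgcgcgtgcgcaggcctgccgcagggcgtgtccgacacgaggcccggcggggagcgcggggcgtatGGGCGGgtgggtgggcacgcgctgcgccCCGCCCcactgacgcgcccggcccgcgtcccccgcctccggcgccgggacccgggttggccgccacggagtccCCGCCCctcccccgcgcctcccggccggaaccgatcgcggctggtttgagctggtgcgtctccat
Sms, upstream start: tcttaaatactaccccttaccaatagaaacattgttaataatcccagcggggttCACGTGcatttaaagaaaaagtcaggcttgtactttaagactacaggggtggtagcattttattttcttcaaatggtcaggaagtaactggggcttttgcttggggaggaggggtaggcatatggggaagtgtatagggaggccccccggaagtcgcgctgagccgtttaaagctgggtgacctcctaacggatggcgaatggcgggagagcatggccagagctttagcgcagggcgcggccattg
Sms, downstream start: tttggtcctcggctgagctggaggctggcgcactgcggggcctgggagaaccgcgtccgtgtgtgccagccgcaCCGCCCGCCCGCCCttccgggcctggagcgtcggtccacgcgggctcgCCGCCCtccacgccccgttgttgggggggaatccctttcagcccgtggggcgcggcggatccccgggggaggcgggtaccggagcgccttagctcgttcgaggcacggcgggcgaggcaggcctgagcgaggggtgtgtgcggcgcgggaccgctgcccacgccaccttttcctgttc
Smox: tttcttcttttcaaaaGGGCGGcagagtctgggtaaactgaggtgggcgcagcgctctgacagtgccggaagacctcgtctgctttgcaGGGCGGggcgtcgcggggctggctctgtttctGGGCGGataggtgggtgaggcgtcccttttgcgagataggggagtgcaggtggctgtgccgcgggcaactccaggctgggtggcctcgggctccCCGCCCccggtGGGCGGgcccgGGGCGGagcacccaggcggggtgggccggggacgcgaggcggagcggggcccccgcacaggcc
Odc1 held 4 GC boxes and Smox 6. The downstream Sms promoter held 4, and the upstream one held no GC box but 1 E-box, whose first base is at position -196 from the start. A GC box was present in 35.7% of 32851 mouse promoters of this length, an E-box in 7.15%, the letters TATAAA in 13.6% and the cyclic AMP response element TGACGTCA in 1.79%. The promoter of Oaz1 held 1 TATAAA and no GC box, that of Oaz2 held 4 GC boxes, that of Sat1 2 and that of Amd1 1. A match describes these letters only. Srm and Azin1 are named here without a promoter.

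Library totals were 13719893 to 17042690 counts in Anagen and 5097457 to 6453337 in Telogen, and since none overlapped, depth and phase cannot be told apart. Levels are normalised counts (CPM, relative to the TMM-adjusted library total), on which 3 counts were worth 0.165 to 0.216 CPM in Anagen and 0.480 to 0.594 CPM in Telogen. Each library is bulk RNA, so that fewer cells of a type and less RNA per cell cannot be told apart. Lgr5 had 24.9 to 82.7 CPM in Anagen and 446 to 473 CPM in Telogen, and the bulge marker Krt15 had 115 to 240 CPM in Anagen and 6343 to 9972 CPM in Telogen. Of 6 bulge markers, 5 were lower in Anagen and 1, Sox9, was higher by edgeR's quasi-likelihood test. Sox9 averaged 2185 ± 276 CPM in Anagen and 874 ± 183 CPM in Telogen. Summed over each marker list, 5 cycling-cell markers had 202 to 290 CPM in Anagen and 2.85 to 13.1 CPM in Telogen (5 of 5 higher by edgeR's test), and 3 basal and outer root sheath keratins had 23225 to 28076 CPM in Anagen and 7584 to 12284 CPM in Telogen (3 of 3 higher). Fibroblast markers summed to 1073, 1516, 81.1 and 103 CPM in Anagen 1 to 4 and to 33.1 to 45.9 CPM in Telogen (5 of 6 higher, Dcn and Lum at 0 in Telogen). Leukocyte markers summed to 0.662 to 1.95 CPM in Anagen and 4.45 to 26.5 CPM in Telogen (1 of 2 tested lower, with Cd3e, Cd3g and Cd207 at 0 in Anagen). Sebocyte markers summed to 724 to 1036 CPM in Anagen and 362 to 527 CPM in Telogen (2 of 3 higher). Most of that sum was Mgst1, with 772 ± 142 CPM in Anagen and 348 ± 90.7 CPM in Telogen. Scd1, which did not pass, averaged 44.1 ± 9.88 CPM in Anagen and 67 ± 24.6 CPM in Telogen. Endothelial markers summed to 1.95 to 7.86 CPM in Anagen and 0 to 2.31 CPM in Telogen (1 of 1 tested higher, Cdh5, at 0 in Telogen). Pecam1, too low to be tested, had 3 counts in all in Anagen and 15 in Telogen. The sums of melanocyte markers (8.65 to 15.1 CPM in Anagen, 8.01 to 14.2 CPM in Telogen) and of matrix and inner root sheath markers (373 to 439 CPM in Anagen, 396 to 440 CPM in Telogen) overlapped. Of 2 melanocyte markers tested, Pmel was higher (10.7 ± 3.14 CPM in Anagen, 4.63 ± 1.19 CPM in Telogen). The other, Dct, did not pass (0.975 ± 0.68 CPM in Anagen, 5.07 ± 2.64 CPM in Telogen). Within the matrix and inner root sheath list, 3 of 5 were higher, among them Krt25 (17.2 ± 5.91 CPM in Anagen, 0.119 ± 0.206 CPM in Telogen), and 1 was lower, Gata3 (86.1 ± 17.9 CPM in Anagen, 300 ± 23.8 CPM in Telogen). The part of these markers in the values below was not tested.

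Among the 8 polyamine genes that passed the filter, Srm and Smox were higher in every Anagen library than in any Telogen library, and Odc1, Sms, Sat1, Oaz1 and Oaz2 were lower in every Anagen library. Only the Azin1 groups overlapped. That is 2 of 8 higher, beside 29.8% of all 12266 genes tested, and 5 of 8 lower, beside 24.8% of all genes. The median log2 fold change, Anagen minus Telogen, was -1.41 over the 8 genes and 0.09 over all genes tested. By edgeR's quasi-likelihood test, 49.5% of all genes tested passed a Benjamini-Hochberg adjusted p of 0.05, 25.8% higher and 23.7% lower in Anagen. The genes were picked with this contrast known, so nothing is read from these shares.

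**Figure D1:**
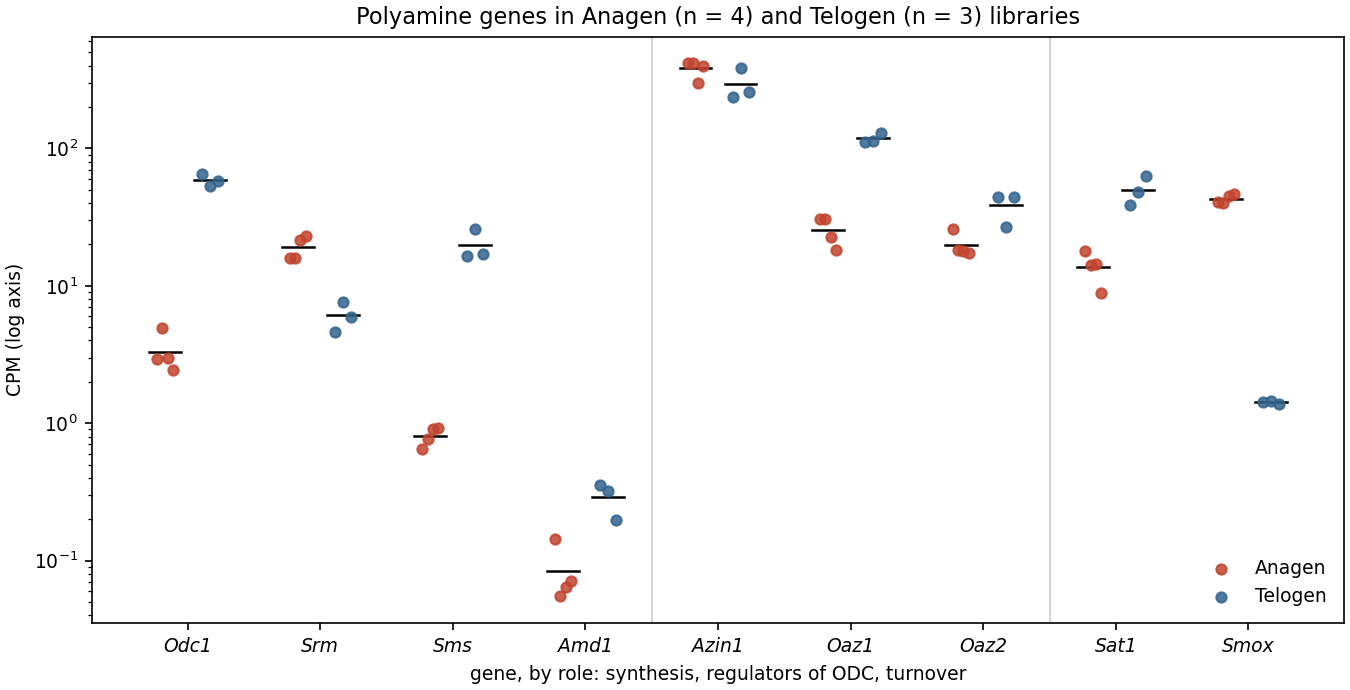
CPM (log axis) of the 9 polyamine genes in each library, Anagen (red, n = 4) left of Telogen (blue, n = 3), with black bars at the group means, ordered as synthesis genes, regulators of ODC and turnover genes. Smox and Srm sit higher in Anagen, and Azin1 is the tested gene whose groups overlap.

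Odc1, which encodes the first and usually rate-limiting enzyme of synthesis, was 17.6-fold lower in Anagen. It had 2.95, 4.91, 2.96 and 2.43 CPM in Anagen 1 to 4, from 41, 89, 46 and 34 counts, against 64.6, 53.2 and 58.3 CPM in Telogen 1 to 3, from 363, 333 and 294 counts. The highest Anagen library, Anagen 2, lay far under the lowest Telogen library. The means were 3.31 ± 1.09 CPM in Anagen and 58.7 ± 5.72 CPM in Telogen (SD, n = 4 and n = 3), and the log2 fold change was -4.14 ± 0.31 (SE). The gene (NM_013614) lies at chromosome 12, 17544873 to 17551502, plus strand of mm10. Odc1 stood at percentile 32.4 to 39.0 of the RPKM of all listed genes in Anagen libraries and at percentile 79.3 to 82.1 in Telogen libraries.

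The synthases that follow ODC went opposite ways. Srm, the spermidine synthase gene (NM_009272, chromosome 4, 148591513 to 148594619, plus strand), had 15.8, 16, 21.6 and 22.9 CPM in Anagen 1 to 4 and 4.63, 7.67 and 5.94 CPM in Telogen 1 to 3. The groups did not overlap, Telogen 2 being the highest of its group, and Srm was 3.13-fold higher in Anagen (log2 fold change 1.65 ± 0.34, SE). With offsets for GC content, an alternative chosen after seeing the data, it was 2.06-fold higher.

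Sms, the spermine synthase gene (NM_009214, chromosome X, 157443954 to 157492046, minus strand), had 0.648, 0.772, 0.902 and 0.929 CPM in Anagen 1 to 4 and 16.4, 26.1 and 17 CPM in Telogen 1 to 3. The Anagen values rest on 9, 14, 14 and 13 counts, and those of Telogen on 92, 163 and 86. All Anagen libraries were close to each other and far under Telogen, whose second library was the highest. Sms was 24.1-fold lower in Anagen (log2 fold change -4.59 ± 0.39, SE), the widest decrease among the 9 genes.

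S-adenosylmethionine decarboxylase had a pair of rows that the table places on the same stretch of chromosome 10. The row named Amd1 (NM_009665, 40287458 to 40302188, minus strand) held 1 or 2 counts in every library, 5 in all in Anagen and 5 in Telogen, under the floor of 3 counts per library, so no fold is given. The row named Amd2 was placed at 40287465 to 40302186, overlapping Amd1 by 14722 bases, whereas RefSeq places the gene Amd2 at 35708691 to 35711891 of chromosome 10. Transcripts of Amd1 and Amd2 are 99.6% identical over 99.9% of the Amd1 transcript. Which of these genes the reads of the Amd2 row came from was not settled. The Amd2 row had 7.49, 6.12, 8.82 and 6.65 CPM in Anagen 1 to 4 and 13, 15.5 and 18 CPM in Telogen 1 to 3, without overlap. Amd2 was not among the 9 genes, and by edgeR's quasi-likelihood test its log2 fold change was -1.09 ± 0.32 (SE, Benjamini-Hochberg adjusted p = 0.0151). The call was lost with the GC offsets (-0.78) and without Anagen 1 and Anagen 2 (-1.0). Summed over both rows, an addition made after seeing the data, the log2 fold change was -1.10 ± 0.31 (SE). The summed rows had 7.35 ± 1.19 CPM in Anagen and 15.8 ± 2.44 CPM in Telogen, and the Amd1 row held 0.725% to 2.67% of their counts.

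The antizymes are translated only when the ribosome shifts by 1 base at a stop codon, a step that polyamines promote, so that antizyme is made when polyamines are plentiful. The sites in the transcripts of Oaz1 and Oaz2 (GENCODE M21, 30 bases each) are shown because the shift takes place there. Capitals mark the last codon of the first frame (TCC) and the stop codon (TGA), and 28 of the 30 bases are equal.
Oaz1: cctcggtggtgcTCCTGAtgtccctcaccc
Oaz2: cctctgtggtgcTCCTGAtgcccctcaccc
These data measure transcripts, not frameshifting.

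Both antizyme genes were lower in Anagen. Oaz1, the main antizyme (NM_008753, chromosome 10, 80826656 to 80829290, plus strand), had 30.6, 30.4, 22.5 and 18.2 CPM in Anagen 1 to 4 and 111, 114 and 130 CPM in Telogen 1 to 3. The groups were well apart, and Oaz1 was 4.65-fold lower in Anagen (log2 fold change -2.22 ± 0.24, SE). Oaz2, a second broadly expressed antizyme (NM_010952, chromosome 9, 65676548 to 65690300, plus strand), had 25.9, 18.2, 17.9 and 17.4 CPM in Anagen 1 to 4 and 44.5, 26.9 and 44.2 CPM in Telogen 1 to 3. Anagen 1 lay just under Telogen 2, and the groups overlapped once all libraries were thinned to 5097457 counts. Oaz2 was 1.94-fold lower in Anagen (log2 fold change -0.96 ± 0.28, SE).

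Azin1, whose product resembles ODC but has no decarboxylase activity, was the most abundant of the 9 transcripts in Anagen by RPKM and the only tested one whose groups overlapped. Azin1 (NM_001102458, chromosome 15, 38487430 to 38519266, minus strand) had 415, 415, 299 and 399 CPM in Anagen 1 to 4 and 238, 382 and 259 CPM in Telogen 1 to 3. Telogen 2 lay above Anagen 3, and the other libraries of the groups were apart. The log2 fold change was 0.38 ± 0.22 (SE), and the groups no longer overlapped without Telogen 2 (0.63), without Anagen 3 (0.48) or with the GC offsets (0.77).

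The turnover genes also went opposite ways. Sat1, which acetylates spermidine and spermine for export or oxidation (NM_001291865, chromosome X, 155213126 to 155216449, minus strand), had 17.8, 14.1, 14.4 and 8.93 CPM in Anagen 1 to 4 and 38.8, 48.3 and 63.0 CPM in Telogen 1 to 3. Every Anagen library was under every Telogen library, and Sat1 was 3.62-fold lower in Anagen (log2 fold change -1.85 ± 0.30, SE).

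Smox, which turns spermine back into spermidine and releases hydrogen peroxide (NM_001177833, chromosome 2, 131491862 to 131525183, plus strand), had 40.4, 39.7, 44.7 and 46.4 CPM in Anagen 1 to 4 and 1.42, 1.44 and 1.39 CPM in Telogen 1 to 3. The Anagen values rest on 561, 721, 694 and 649 counts and those of Telogen on 8, 9 and 7. It had the widest difference of the 9 genes, with 42.8 ± 3.24 CPM in Anagen and 1.42 ± 0.0267 CPM in Telogen (SD, n = 4 and n = 3). So few Telogen counts cannot resolve so small an SD, so it is not read as little spread between samples. Smox was 30.0-fold higher in Anagen (log2 fold change 4.91 ± 0.32, SE).

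On the length-corrected RPKM scale the order of the genes differed between the phases. In Anagen Azin1 was highest (61.3 to 87.6 RPKM over libraries), above Oaz1 (17.2 to 29.9), Smox (17.8 to 20.8), Srm (11.8 to 17.5), Sat1 (7.09 to 13.8), Oaz2 (9.58 to 14), Odc1 (0.968 to 2.04) and Sms (0.191 to 0.280). Neighbours from Oaz1 to Oaz2 overlapped in range except Smox and Srm, while Azin1, Odc1 and Sms each stood apart from their neighbours. In Telogen Oaz1 was highest (95.4 to 119 RPKM), above Azin1 (43.6 to 73.5), Sat1 (27.9 to 48.5), Odc1 (20.2 to 23.4), Oaz2 (14.1 to 23.7), Sms (4.47 to 7.46), Srm (3.21 to 5.57) and Smox (0.580 to 0.614). There, Azin1 overlapped Sat1, Odc1 overlapped Oaz2 and Sms overlapped Srm.

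Ratios of RPKM within a library do not depend on how libraries are scaled, but may depend on how reads from near-identical copies were counted. Smox over Sms was 74.0 to 93.0 in Anagen libraries and 0.0824 to 0.130 in Telogen libraries. By RPKM, the transcript of the oxidase that consumes spermine thus stood above that of the synthase that makes it in every Anagen library. In every Telogen library it stood under that of the synthase. Srm over Sms was 52.6 to 62.5 in Anagen and 0.717 to 0.885 in Telogen. Azin1 over Oaz1, the inhibitor transcript over that of its antizyme, was 2.84 to 4.70 in Anagen and 0.428 to 0.718 in Telogen. Odc1 over Oaz1 was lower in Anagen, at 0.0407 to 0.0682, against 0.189 to 0.245 in Telogen. Both of those transcripts were lower in Anagen, Odc1 by the wider margin. Smox over Sat1 was 1.29 to 2.94 in Anagen and 0.0125 to 0.0208 in Telogen, and Oaz1 over Oaz2 was 1.80 to 2.85 in Anagen and 4.29 to 7.28 in Telogen. These pairs reuse the same genes and are a description.

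**Figure D2:**
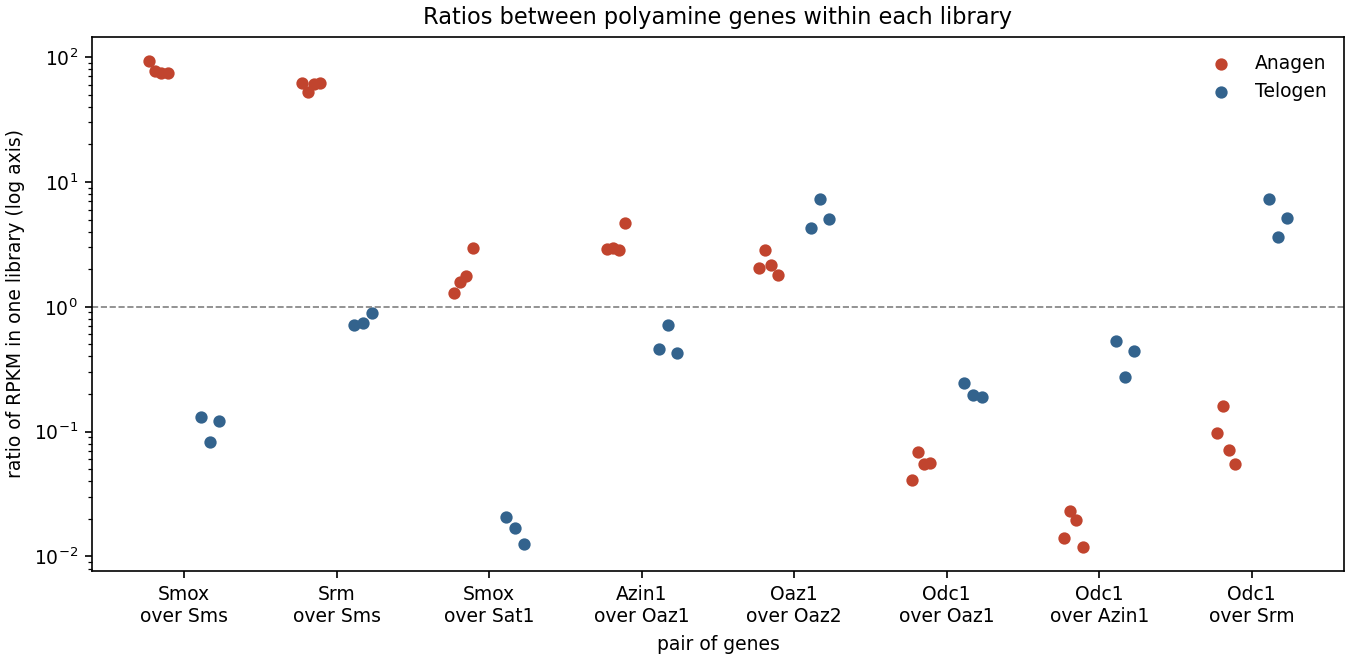
Ratio of RPKM between pairs of polyamine genes within each library (log axis), Anagen (red, n = 4) left of Telogen (blue, n = 3), with a dashed line at equal RPKM. Smox over Sms, Srm over Sms, Smox over Sat1 and Azin1 over Oaz1 lie above 1 in all Anagen libraries and under 1 in all Telogen libraries.

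Several of these genes have near-identical copies, and how the authors counted reads that map to several places is not given in the sources used here. Gapdh, a gene with many processed pseudogenes, had 1 to 20 counts per library. Transcripts of Odc1 matched those of 14 other GENCODE M21 genes at 90% identity or more over 200 or more bases, nearly all processed pseudogenes. Amd1 matched 8, Sms 6, Sat1 and Oaz2 2 each, and Srm, Azin1 and Oaz1 1 each, for Azin1 the antisense gene Gm49077, which overlaps it by 481 bases on the opposite strand. The longest of these outside Amd1 by share of transcript was Srm's Gm5364, over 67.4% of the transcript at 91.2% identity. Smox had none. Levels of the genes with copies, and the ratios of RPKM that use them, are therefore uncertain. The part of the copies in the differences between groups was not tested.

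Genes around the pathway were compared by edgeR's quasi-likelihood test with Benjamini-Hochberg adjustment over all 12266 genes. Of 47 genes in 6 lists, 42 were listed and 37 tested, of which 11 were higher in Anagen, 13 were lower and 13 did not pass. Over all genes tested, 25.8% were higher and 23.7% lower, shares that stand beside the counts of each list below. Of the 37 related genes tested, 64.9% passed the threshold, against 49.5% of all genes. Their median log2 fold change was -0.26, against 0.09 for all genes. The lists were chosen with earlier results of these data known, so nothing is read from these shares and medians. The count of higher genes fell whichever library was left out. It was 8 without Anagen 1, 7 without Anagen 2, 7 without Anagen 3 and 5 without Anagen 4. It was 9 without Telogen 1, 10 without Telogen 2, 9 without Telogen 3 and 6 without both Anagen 1 and Anagen 2. Over all genes, 3170 were higher, and 2587 to 2673 with 1 Anagen library left out. The count of lower genes was 10 to 14 over the alternatives other than DESeq2, which gave 15.

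**Figure D3:**
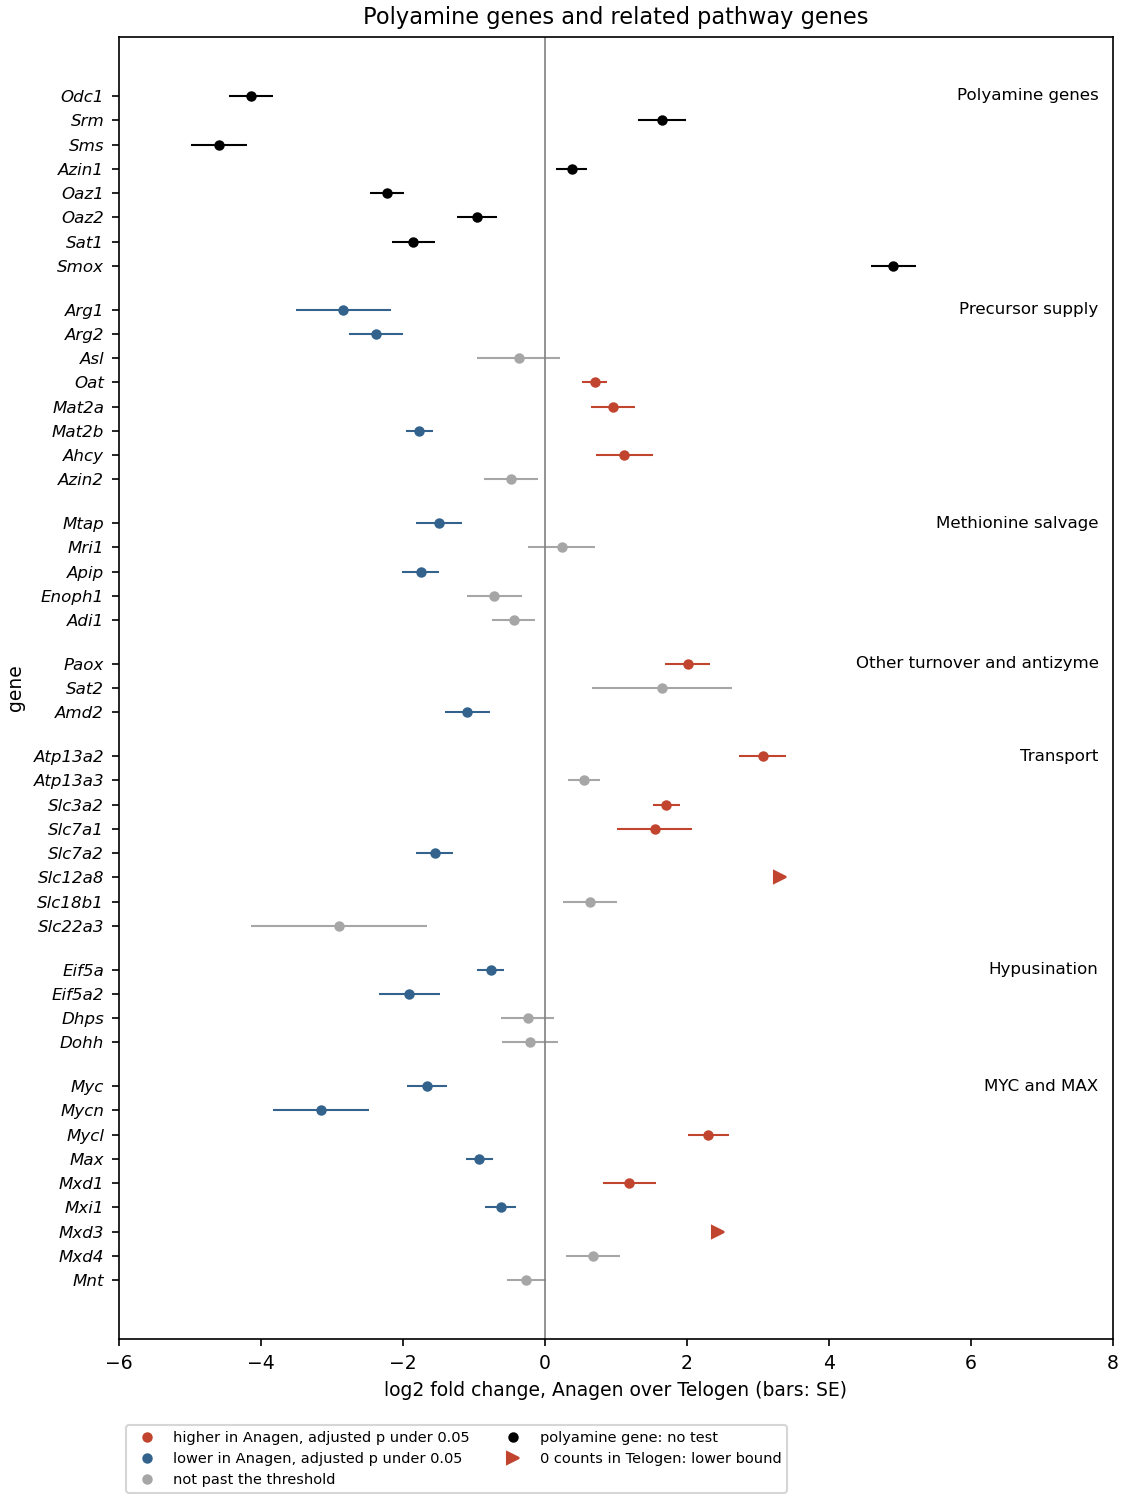
Log2 fold change, Anagen over Telogen, of the 8 polyamine genes past the filter (black, no test) and of 37 related genes by list (red higher, blue lower, grey not past an adjusted p of 0.05), with bars for the SE. Triangles mark Slc12a8 and Mxd3, which had 0 counts in Telogen, at their lower bounds.

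Genes of precursor supply, which provide ornithine and S-adenosylmethionine, were mixed, with 3 of 8 tested higher, 3 lower and a median log2 fold change of -0.42. The 3 became 1 higher gene without Telogen 1, Telogen 3, Anagen 3 or Anagen 4. The arginases, which make ornithine from arginine, fell in Anagen. Arg2 averaged 5.19 ± 2.36 CPM in Anagen and 27.0 ± 1.92 CPM in Telogen (log2 fold change -2.38 ± 0.38, SE, edgeR adjusted p = 0.000512, and -2.99 without Anagen 1 and Anagen 2). Arg1 averaged 1.74 ± 1.57 CPM in Anagen and 12.6 ± 2.57 CPM in Telogen (-2.84 ± 0.67, edgeR adjusted p = 0.00521). Its log2 fold change was -3.56 without Anagen 4, the Anagen library with the most Arg1. Mat2b, the regulatory subunit of methionine adenosyltransferase, had 127 ± 21.2 CPM in Anagen and 433 ± 10.1 CPM in Telogen (-1.77 ± 0.19, edgeR adjusted p = 2.97e-05). Mat2a, the catalytic subunit, went the other way, with 273 ± 113 CPM in Anagen and 140 ± 25.8 CPM in Telogen (0.96 ± 0.31, edgeR adjusted p = 0.0256). The Mat2a call was lost without Telogen 1, Telogen 3, Anagen 3 or Anagen 4. Oat, the ornithine aminotransferase gene, rose to 365 ± 55.1 CPM in Anagen, against 224 ± 16.1 CPM in Telogen (0.70 ± 0.18, edgeR adjusted p = 0.00825).

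In methionine salvage, which recycles the methylthioadenosine that both synthases release, 2 of 5 genes fell, 3 did not pass and 0 rose. The 0 held also by DESeq2 and at an unadjusted p under 0.05. Over all genes tested, 23.7% fell and 25.8% rose. The median log2 fold change of the list was -0.71. Mtap, the phosphorylase of the first step, averaged 31.5 ± 4.06 CPM in Anagen and 88.8 ± 51.3 CPM in Telogen (-1.49 ± 0.33, edgeR adjusted p = 0.00376). Telogen 3 held 148 CPM, and the log2 fold change was -0.90 without it. Apip, a dehydratase of the same route, averaged 8.53 ± 0.588 CPM in Anagen and 28.7 ± 2.50 CPM in Telogen (-1.75 ± 0.26, edgeR adjusted p = 0.00033). Enoph1 (-0.71 ± 0.39, edgeR adjusted p = 0.15), Mri1 (0.24 ± 0.47, edgeR adjusted p = 0.702) and Adi1 (-0.44 ± 0.30, edgeR adjusted p = 0.244) did not pass. Enoph1 passed without Telogen 1 (-1.03). The list had 3 lower genes without Telogen 1 and also without Telogen 2.

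A list of other turnover and antizyme genes had 3 tested. Paox, the oxidase that acts on what Sat1 acetylates, rose in Anagen to 72.8, 61.6, 88.5 and 44.5 CPM in Anagen 1 to 4, against 22.8, 13.3 and 13.7 CPM in Telogen 1 to 3. Its log2 fold change was 2.01 ± 0.32 (SE, edgeR adjusted p = 0.000527). Sat2 did not pass (1.65 ± 0.98, edgeR adjusted p = 0.184), on 1 to 7 counts per Telogen library. The third was the Amd2 row described above, which belongs to synthesis, not to turnover. The median log2 fold change over these 3 was 1.65, which is the value of Sat2.

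Transport genes had 4 of 8 higher and 1 lower, with a median log2 fold change of 1.09 (also 1.09 with Slc12a8 at its bound). Without Anagen 2 or Anagen 4, and without Anagen 1 and Anagen 2 together, 2 were higher, and without Anagen 3 2 were lower. Atp13a2, which exports polyamines from the lysosome to the cytosol, rose to 87.7, 110, 109 and 80.9 CPM in Anagen 1 to 4, against 13.5, 6.23 and 14.9 CPM in Telogen 1 to 3 (3.07 ± 0.33, SE, edgeR adjusted p = 3.68e-05). Slc3a2, the shared heavy chain of several amino acid transporters, rose to 234 ± 24.7 CPM in Anagen, against 71.8 ± 7.35 CPM in Telogen (1.71 ± 0.19, edgeR adjusted p = 4.27e-05). The arginine transporter genes went opposite ways. Slc7a2 fell to 29.5 ± 6.60 CPM in Anagen, against 86.5 ± 22 CPM in Telogen (-1.55 ± 0.26, edgeR adjusted p = 0.000656). Slc7a1 was higher, with 30.8 ± 10 CPM in Anagen and 10.6 ± 8.37 CPM in Telogen (1.55 ± 0.53, edgeR adjusted p = 0.0307). The Slc7a1 groups overlapped. Slc12a8 had 11, 18, 58 and 21 counts in Anagen 1 to 4 and 0 in Telogen, at least 9.90-fold higher against 3 counts over the group (edgeR adjusted p = 0.00886). It was too low to be tested without Anagen 2, Anagen 3 or Anagen 4. The bound was 6.13 without Anagen 3, 6.24 without Telogen 2 and 6.61 without Telogen 1.

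Hypusination, in which spermidine is used to modify the translation factor eIF5A, had 2 of 4 genes lower and 0 higher. The 0 held also by DESeq2 and at an unadjusted p under 0.05. Over all genes tested, 23.7% were lower and 25.8% higher. The median log2 fold change of the list was -0.50. Eif5a fell to 317 ± 58.1 CPM in Anagen, against 539 ± 82.2 CPM in Telogen (-0.76 ± 0.19, SE, edgeR adjusted p = 0.00749), a call lost without Anagen 1 and Anagen 2 (-0.61, edgeR adjusted p = 0.0997). Eif5a2 fell to 8.20 ± 3.59 CPM in Anagen, against 30.8 ± 14.5 CPM in Telogen (-1.91 ± 0.43, edgeR adjusted p = 0.00377, and -2.57 without Anagen 1 and Anagen 2). The enzyme genes Dhps (-0.24 ± 0.37, edgeR adjusted p = 0.617) and Dohh (-0.21 ± 0.39, edgeR adjusted p = 0.677) did not pass.

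In the MYC and MAX network, 3 of 9 genes rose and 4 fell, with a median log2 fold change of -0.26 (the same with Mxd3, at 0 counts in Telogen, at its bound). Without Anagen 1 or Anagen 4, and without Anagen 1 and Anagen 2 together, 1 rose. Myc, an activator of Odc1 transcription, fell to 22, 19.3, 35.3 and 30.0 CPM in Anagen 1 to 4, against 104, 80.1 and 68.0 CPM in Telogen 1 to 3 (-1.66 ± 0.28, SE, edgeR adjusted p = 0.000643). Mycn fell to 11.4, 29.4, 2.83 and 3.86 CPM in Anagen 1 to 4, against 139, 113 and 65.4 CPM in Telogen 1 to 3 (-3.15 ± 0.68, edgeR adjusted p = 0.00309). Anagen 2 was the highest of its group, and the log2 fold change was -4.14 without it and -4.98 without Anagen 1 and Anagen 2. Max, their shared partner, fell to 260 ± 45 CPM in Anagen, against 491 ± 60.1 CPM in Telogen (-0.92 ± 0.19, edgeR adjusted p = 0.00236). Mycl went the other way, at 66.8 ± 5.83 CPM in Anagen and 13.5 ± 4.64 CPM in Telogen (2.30 ± 0.29, edgeR adjusted p = 0.000104).

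The genes whose pattern over the 7 samples was most like that of Odc1, by the root mean square difference of centred log2 CPM, were Nampt (0.179), Ccl27a (0.227) and Nfatc1 (0.241). Predicted genes (Gm numbers, Rik names and LOC numbers) were left out of this ranking. Nampt, which makes a precursor of NAD, averaged 21 ± 4.84 CPM in Anagen and 347 ± 53.8 CPM in Telogen. Ccl27a, a chemokine gene of keratinocytes, averaged 12.4 ± 2.85 CPM in Anagen and 203 ± 35.6 CPM in Telogen. Nfatc1, a transcription factor of resting bulge cells and one of the bulge markers, averaged 5.48 ± 2.02 CPM in Anagen and 124 ± 21.7 CPM in Telogen. They were picked for this likeness over the same samples, so their values are a description.

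Each of the 8 tested polyamine genes kept its direction over the 15 alternatives tried. The log2 fold change ranged from -4.43 to -4.03 for Odc1, from -4.70 to -4.34 for Sms, from -2.10 to -1.65 for Sat1, from -2.70 to -2.10 for Oaz1 and from -1.27 to -0.83 for Oaz2. It ranged from 1.04 to 1.87 for Srm, from 4.51 to 5.0 for Smox and from 0.25 to 0.77 for Azin1. Leaving out Anagen 1 and Anagen 2, the libraries with the high fibroblast markers, gave -4.43 for Odc1, 1.87 for Srm, 4.99 for Smox, -2.10 for Sat1, -2.54 for Oaz1 and -1.12 for Oaz2, each further from 0 than with all libraries. Without them Sms (-4.42) and Azin1 (0.25) were nearer to 0.

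**Figure D4:**
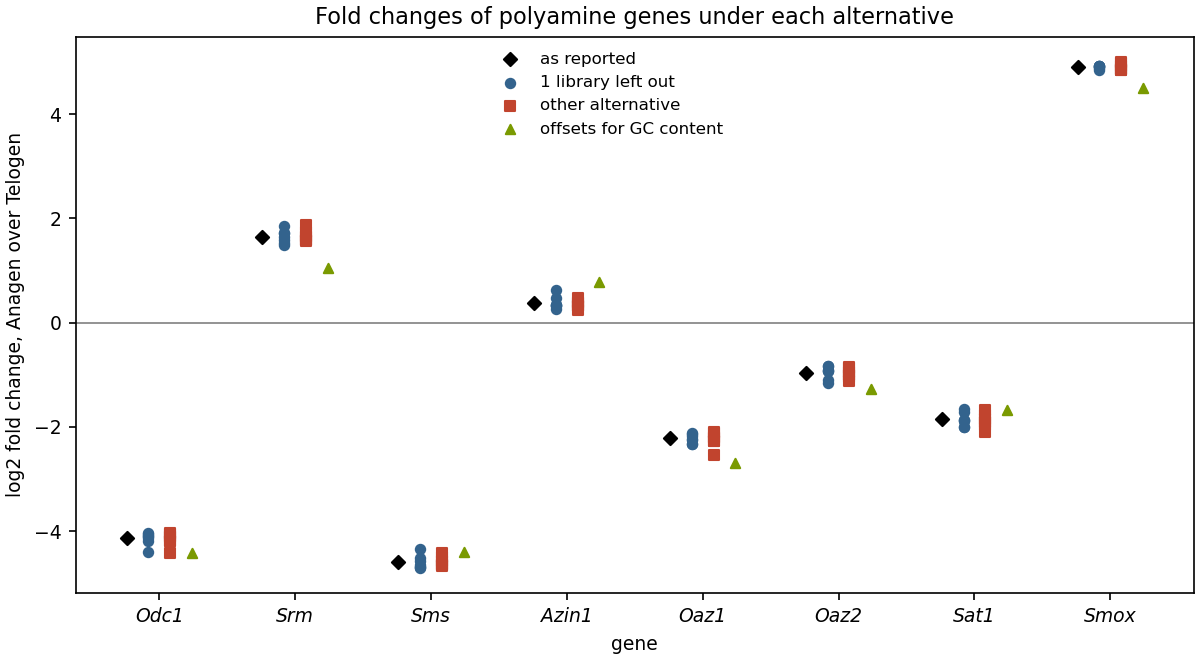
Log2 fold change, Anagen over Telogen, of the 8 polyamine genes past the filter as reported (diamonds), with 1 library left out (circles), under other alternatives (squares) and with offsets for GC content (triangles). Every point of a gene stays on 1 side of 0, and the GC offsets move Srm (1.04) and Azin1 (0.77) the furthest from their reported values relative to their size.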

How the data were processed

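RNA-seq was done on sorted Lgr5-positive cells, 4 Anagen and 3 Telogen samples, with libraries from the Ovation RNA-Seq System V2, per the labels' protocols. The authors deposited raw read counts per gene and RPKM for 15415 genes, per the file headers. RPKM equalled count over length and total in 107905 of 107905 values (relative tolerance 1e-10). Per the submitters' processing notes the build was mm10. The aligner, the counter and the handling of strand and multi-mapping were not given in the sources used here. Starts are given 1-based.

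Counts were tested with edgeR 4.0.16 (R 4.3.3, robust quasi-likelihood test, TMM, minimum count 10, minimum total 15, 12266 genes), Benjamini-Hochberg adjusted at 0.05, without covariates. SE is the log2 fold change over the square root of F. The fit was also run on simulated data, a check of the code that does not measure error rates in these data. The members and lists were chosen with earlier results of these data known. Named genes were the 9 members and up to 4 tested genes of each related list (those with the smallest adjusted p first, then others in list order). Also named were the 3 genes most like Odc1 (log2 CPM, prior count 2, predicted genes left out). Slc12a8 and Mxd3, at 0 counts in Telogen, were given a bound against 3 counts over the group, which covers counting error only. Mat2a, Slc7a1, Adi1, Mxd3, Gapdh, Gm49077, Gm5364 and the marker genes were named in addition. Near copies were found with BLAST+ 2.17.0 against GENCODE M21. Libraries of a group differed by 22.5 to 67.3 chi-square per degree of freedom, so none was a copy. Alternatives were other scaling, no filter, thinning, DESeq2 1.42.0, a replicate block, single libraries left out, Anagen 1 and 2 left out, and, chosen after seeing the data, GC offsets (GC known for 96.6% of genes) and the summed Amd rows.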

Additional observations from a re-analysis of the deposited data

Results flagged for a closer look

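In 3 of 32 groups of 4 Anagen libraries examined, 1 library stood apart from the other 3 (Dixon's test of the gap to the nearest library), where chance gives about 1 in 20. Azin1 had 299 CPM in Anagen 3, against 399 to 415 CPM in the other Anagen libraries. Oaz2 had 25.9 CPM in Anagen 1, against 17.4 to 18.2 CPM in the others. Slc7a2 had 39.4 CPM in Anagen 2, against 25.9 to 26.3 CPM in the others. Each is a different library, and the cause was not tested.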

How the results depend on the processing

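All 8 tested polyamine genes kept their direction under the 15 alternatives, with the overlaps of Azin1 and Oaz2 as given above. Of the related genes, 11 were higher as reported, 6 with the replicate block, 6 without Anagen 1 and Anagen 2, and 5 to 10 when 1 library was left out. With the replicate block Amd2 (log2 fold change -1.06) and Slc12a8 (edgeR adjusted p = 0.0578) lost their calls. The block has no basis in the labels beyond the number: deviations of same-numbered libraries correlated at 0.004, 0.079 and -0.045, and not every library correlated best with its own number. The lower count stayed within 1.5 times of 13. Directions turned, all in genes not past the threshold, for Mri1 (-0.03 with GC offsets, and -0.02 to 0.69 with 1 library left out, negative without Telogen 3), Dhps (-0.44 to 0.08, positive without Telogen 3) and Dohh (-0.47 to 0.23, positive without Telogen 2). The cause was not tested. The median log2 fold change of all genes was 0.09 with TMM, 0.03 with DESeq2 size factors and 0.19 with total counts only. With 0 counts in Telogen, Slc12a8 was too low to be tested in 5 of 15 alternatives. The few counts of Sms in Anagen (9 to 14) and of Smox in Telogen (7 to 9) limit the precision of their folds, and Amd1 was too low to compare.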
